A study of Homo sapiens with 12 samples.

Results

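CXC chemokines were followed at the mRNA level in MDA-MB-231-ERβ cells, a triple negative breast cancer (TNBC) line that expresses full length estrogen receptor beta (ERβ) under doxycycline (dox). The genes were chosen by symbol from a list of 9, namely CXCL1, CXCL2, CXCL3, CXCL5, CXCL6, CXCL8, CXCL10, CXCL11 and CXCL16. Of these, 6 were found among the 12451 entries of the count table and 5 among the 11303 entries that were tested. CXCL5 was counted but reached 1 RPKM (reads per kilobase of exon per 1e6 reads) in 1 library, so it was not tested. CXCL6, CXCL10 and CXCL11 were not analysed here.

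The 12 libraries form 4 groups of 3. Cells were plated in triplicate. The study describes its in vitro work in general as biological replicates, but the labels do not tie these libraries to separate cultures, so p-values measure the spread between these samples, which may be technical. Vehicle cells had dox and ethanol, E2 cells had dox and 1 nM E2 (17β-estradiol), TNFα cells had dox and 20 ng/ml TNFα, and E2+TNFα cells had both agents. Treatment with E2 or vehicle lasted 5 days and TNFα was present for the last 3 h. Dox is named in the labels of each group other than E2+TNFα, for which it was taken from the methods of the study. The system is limited to 1 engineered line in which ERβ comes from an induced transgene.

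Most chemokines of this family guide neutrophils or lymphocytes toward the tissue that releases them. CXCL1, CXCL2, CXCL3, CXCL5, CXCL6 and CXCL8 bind CXCR2 and attract neutrophils, CXCL10 and CXCL11 bind CXCR3 and attract T cells, and CXCL16 is a membrane-bound ligand of CXCR6. TNFα acts through its receptors on the transcription factor NFκB, and the CXCR2 ligands are textbook NFκB target genes. In breast cancer cells, CXCL8 and CXCL1 are known for roles in migration and invasion.

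Except for CXCL16, on chromosome 17 (4733529 to 4739928, minus strand, hg38), the measured members lie in one stretch of chromosome 4. In order of coordinate these are CXCL8 (73740506 to 73743716), CXCL1 (73869392 to 73871302), CXCL5 (73995642 to 73998729), CXCL3 (74036589 to 74038773) and CXCL2 (74097035 to 74099280). CXCL8 and CXCL1 are on the plus strand and the others on the minus strand. Their exons differ in base composition, with a GC content of 33.4% for CXCL8, 37.4% for CXCL5, 45.6% for CXCL1, 45.8% for CXCL2, 46% for CXCL3 and 56.7% for CXCL16. CXCL1, CXCL2 and CXCL3 are close copies, and 4.82%, 9.02% and 4.47% of their 50-base exon windows, respectively, occur in another CXC ligand. No such window was shared by CXCL5, CXCL8 or CXCL16, and reads from the shared stretches of the near copies are of uncertain origin.

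The 150 bases before the RefSeq transcription start (GRCh38.p14) are shown for the 5 chromosome 4 members. Of these, 4 carry the same exact match to the NFκB consensus there, and CXCL8 has a similar stretch that is not an exact match. Each is written 5′ to 3′ on the strand of its gene. In CXCL1, CXCL2, CXCL3 and CXCL5 capitals mark the bases matched by the NFκB consensus on either strand, and in CXCL8, which has no match, the stretch nearest to it.
CXCL1 (chr4:73869243-73869392, plus strand): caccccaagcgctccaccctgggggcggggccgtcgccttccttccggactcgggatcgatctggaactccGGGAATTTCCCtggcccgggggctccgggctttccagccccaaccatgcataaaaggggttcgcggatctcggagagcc
CXCL2 (chr4:74099196-74099345, minus strand): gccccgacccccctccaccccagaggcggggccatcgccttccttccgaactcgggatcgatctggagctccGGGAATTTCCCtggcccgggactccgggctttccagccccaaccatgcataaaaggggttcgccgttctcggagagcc
CXCL3 (chr4:74038690-74038839, minus strand): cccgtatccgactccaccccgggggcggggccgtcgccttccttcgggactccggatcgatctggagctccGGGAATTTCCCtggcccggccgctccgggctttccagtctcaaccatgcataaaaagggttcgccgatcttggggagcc
CXCL5 (chr4:73998678-73998827, minus strand): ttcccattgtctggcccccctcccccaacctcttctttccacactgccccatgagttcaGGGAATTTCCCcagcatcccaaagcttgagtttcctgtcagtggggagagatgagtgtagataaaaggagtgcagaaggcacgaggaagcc
CXCL8 (chr4:73740419-73740568, plus strand): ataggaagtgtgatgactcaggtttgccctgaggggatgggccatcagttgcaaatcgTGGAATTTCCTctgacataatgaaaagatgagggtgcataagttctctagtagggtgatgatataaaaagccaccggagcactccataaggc
The gene models behind the counts begin inside this window for CXCL2, CXCL3, CXCL5 and CXCL8, and at its last base for CXCL1. CXCL1, CXCL2, CXCL3 and CXCL5 held an identical run of 11 bases, which occurs in 27 of 35116 RefSeq promoters of 300 bases (0.0769%). Its position was -79 to -69 from the start of CXCL1, and the consensus on the forward strand began at -78 in CXCL2, -79 in CXCL3 and -91 in CXCL5. A match to the NFκB consensus on either strand was present in 11.3% of all promoters. The nearest stretch in CXCL8, at -92 to -82, differed from the run at 2 bases, and 7.13% of promoters have a stretch at most this far from it. Whether NFκB binds this stretch was not tested. CXCL8 also had an AP-1 motif (TGANTCA, -137 to -131, in 7.71% of promoters) and a TATA box (TATAAA, -31 to -26, in 11.5%). Neither of these was found in the other promoters shown, and the estrogen response element (in 0.057% of promoters) and the interferon-stimulated response element (in 3.57%) were found in none of the 5. Between CXCL1, CXCL2 and CXCL3 the 150 bases were 86.1% to 88.7% identical, whereas those of CXCL8 were 39.7% to 43.3% identical to these. The promoter of CXCL16 was not analysed here.

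Reads assigned to genes ranged from 7.65 to 39.9 M per library (M, mega), with the lowest totals in E2 libraries. Between replicates, chi-square per degree of freedom of the counts was 9.49 to 66, so the spread went well past counting error. The vehicle libraries stood apart, with Spearman correlations across genes of 0.706 to 0.863 with the other libraries, against at least 0.928 among libraries of the other groups. In the 2261 tested genes lowest in GC content (at most 42%), the median deviation from the mean over libraries was 1.19 to 1.55 (log2) in vehicle libraries and -0.77 to 0.10 in the others. Whether vehicle libraries were also a batch of their own cannot be told apart from vehicle treatment, so comparisons without vehicle are given first. ESR2, which encodes ERβ, was at 472.5 ± 14.9 CPM (counts per 1e6 reads, SD, n = 3) in vehicle, 254.9 ± 26.7 in TNFα, 306.4 ± 14.7 in E2 and 448.5 ± 53.2 in E2+TNFα libraries. CD44, EGFR, KRT18 and VIM, which are known to be expressed in this line, were all detected, at 755, 251, 445 and 1550 CPM in vehicle. EPCAM, listed as low or absent in this line, was at 9.93 CPM there. Of 8 listed markers of leukocytes, endothelium and fibroblasts, 3 were counted. Only COL1A1, a fibroblast marker at 11.2 CPM in vehicle, was tested among them. In these bulk samples, fewer expressing cells and less RNA per cell cannot be told apart.

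The first question was what TNFα does to the chemokines in cells that had E2. All 4 tested members of the chromosome 4 cluster were higher in E2+TNFα than in E2 cells, and CXCL16 was not. CXCL3 rose 10.9-fold, CXCL8 9.78-fold, CXCL1 3.86-fold and CXCL2 3.76-fold. Significant regulation was taken as a log2 fold change of 1.5 or more in either direction, p under 0.05, and an adjusted p up to 0.1 (edgeR quasi-likelihood test, Benjamini-Hochberg adjustment over all tested entries). By this rule 4 of 5 members were higher, beside 0.389% of all tested entries that were higher and 0.407% that changed in either direction.

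CXCL3, a CXCR2 ligand, was at 1.98, 2.71 and 2.17 CPM in the E2 libraries (17 to 29 reads each) and at 26.2, 22.7 and 24.0 CPM with E2+TNFα. The gap was many times the spread within either group. Its log2 fold change was 3.45 (SE 0.193, adjusted p = 3.5e-08, edgeR), and 3.35 to 3.53 when each library was left out in turn.

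CXCL1, a growth-regulated CXCR2 ligand first described in melanoma cells, was at 62.9, 72.6 and 77.8 CPM with E2 and at 278, 267 and 277 CPM with E2+TNFα. The E2+TNFα libraries were nearly level, and the groups did not overlap. The log2 fold change was 1.95 (SE 0.111, adjusted p = 3.5e-08, edgeR).

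CXCL2, its near copy, was at 13.3, 18.5 and 20.0 CPM with E2 and at 69.1, 64.0 and 59.7 CPM with E2+TNFα. The groups were far apart, with a log2 fold change of 1.91 (SE 0.149, adjusted p = 1.58e-06, edgeR).

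CXCL8, which encodes interleukin 8, was the least even member. It was at 70.1, 13.9 and 33.7 CPM with E2 and at 362, 696 and 119 CPM with E2+TNFα. Every E2+TNFα library was above every E2 library, but the highest was 5.83 times the lowest within E2+TNFα and 5.05 times within E2. The log2 fold change was 3.29 (SE 0.557, adjusted p = 0.00625, edgeR), 2.58 without E2+TNFα replicate 2 and 4.02 without E2 replicate 1. With each library's trend with exon GC content and length removed, it was 2.73 with an SE of 0.247, and with a factor of unwanted variation from 20 housekeeping genes 1.76 (adjusted p = 0.00313, edgeR).

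CXCL16 was at 36.7, 49.1 and 34.3 CPM with E2 and at 36.1, 30.9 and 37.5 CPM with E2+TNFα. These groups overlapped, and the log2 fold change of -0.19 (SE 0.157, adjusted p = 0.532, edgeR) was near the median of all tested entries, 0.00823.

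CXCL5, another CXCR2 ligand and the neighbour of CXCL3, had 0, 0 and 0 reads with E2 and 0, 1 and 3 reads with E2+TNFα. No fold was computed, since both groups are near the floor of 3 reads.

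**Figure D1:**
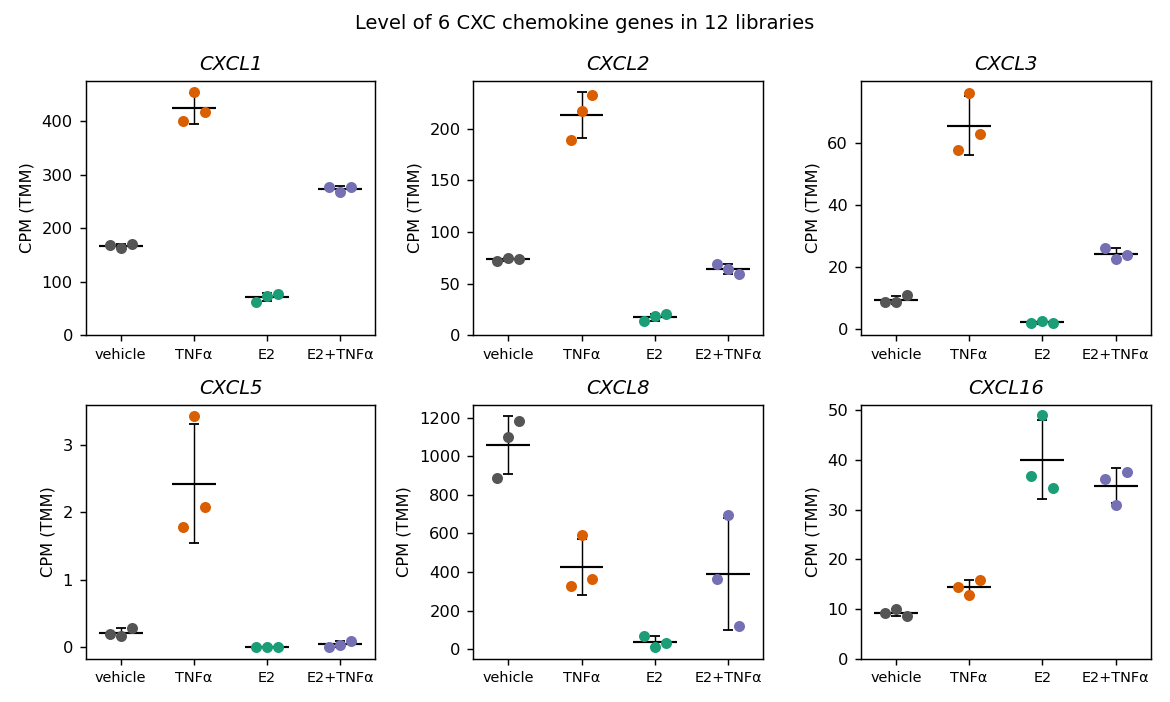
TMM-normalized counts per 1e6 (CPM, vertical axes from 0, a scale per gene) of 6 CXC chemokine genes in vehicle, TNFα, E2 and E2+TNFα libraries; points are libraries, bars the mean and SD of 3. CXCL1, CXCL2, CXCL3 and CXCL5 are highest with TNFα alone, CXCL8 in vehicle, and CXCL16 in both groups with E2.

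The next comparison asked what E2 does to the chemokines in cells that had TNFα. CXCL1, CXCL2 and CXCL3 fell and CXCL16 rose, whereas CXCL8 did not pass the test. Of the 5 members, CXCL2 alone was significantly regulated, at 1 member lower beside 2.01% of all tested entries lower and 5.56% in either direction. With the size of change left aside, 3 members passed the adjusted p alone as lower and 1 as higher, beside 21.0% and 24.4% of all tested entries.

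CXCL2 was at 189, 217 and 233 CPM with TNFα and at 69.1, 64.0 and 59.7 CPM with E2+TNFα. It was 3.32-fold lower, a log2 fold change of -1.73 (SE 0.139, adjusted p = 1.56e-07, edgeR). The level reached with both agents was 64.3 ± 4.72 CPM (SD, n = 3), next to 73.4 ± 1.5 in vehicle cells.

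CXCL3 was at 57.8, 76.2 and 62.8 CPM with TNFα and at 26.2, 22.7 and 24.0 CPM with E2+TNFα. It was 2.69-fold lower, a log2 fold change of -1.43 (SE 0.151, adjusted p = 2.66e-06, edgeR), just short of the size threshold. Without TNFα replicate 1 it was -1.52, without E2+TNFα replicate 1 it was -1.51, and after removal of the GC and length trends -1.53, each past the threshold.

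CXCL1 was at 400, 456 and 418 CPM with TNFα and at 278, 267 and 277 CPM with E2+TNFα. It fell least of these genes, 1.55-fold, at -0.63 (log2, SE 0.106, adjusted p = 0.000262, edgeR), with no overlap between the groups.

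CXCL5 had 54, 105 and 40 reads with TNFα and 0, 1 and 3 with E2+TNFα. The groups did not overlap, and summed over libraries the level per 1e6 reads was 50 times higher with TNFα (95% exact conditional binomial interval 19.2 to 185, counting error only). Against E2 alone, with no reads, TNFα libraries were at least 29.2-fold higher, taken against 3 reads over the group. Its counts were few, and it was not tested across replicates in the main fit.

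CXCL8 was at 326, 592 and 362 CPM with TNFα and at 362, 696 and 119 CPM with E2+TNFα. The groups overlapped, and the log2 fold change of -0.12 (SE 0.501, adjusted p = 0.875, edgeR) had an error nearly as large as the change of CXCL1. It was 0.17 without TNFα replicate 2 and 0.31 without E2+TNFα replicate 3. After removal of the GC and length trends it was -0.92 (SE 0.22, adjusted p = 0.00249, edgeR), so whether CXCL8 fell depended on that step.

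CXCL16 was at 14.4, 12.9 and 15.8 CPM with TNFα and at 36.1, 30.9 and 37.5 CPM with E2+TNFα. It rose 2.43-fold, the one member to do so, with a log2 fold change of 1.28 (SE 0.159, adjusted p = 1.53e-05, edgeR), below the size threshold.

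**Figure D2:**
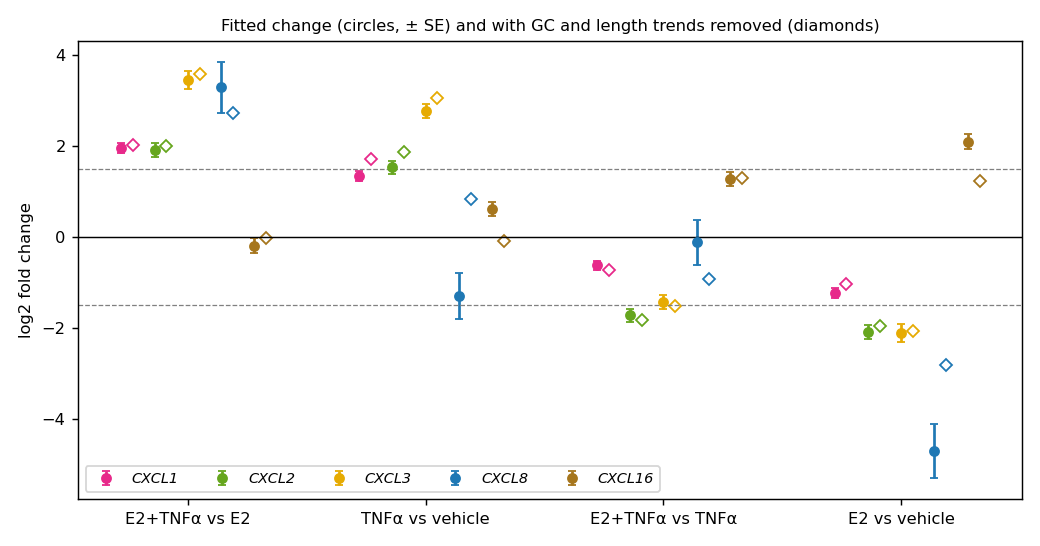
Log2 fold changes (vertical axis) of the 5 tested members in 4 comparisons; circles are fitted values with their SE, diamonds the values with each library's GC and length trends removed, and dashed lines the threshold of 1.5 in either direction. In E2+TNFα relative to E2 cells both kinds of value are past the threshold for CXCL1, CXCL2, CXCL3 and CXCL8, while CXCL8 in TNFα relative to vehicle cells lies at -1.31 or 0.83.

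In comparisons with vehicle, TNFα alone raised CXCL3 and CXCL2 past the thresholds, 2 of 5 members higher beside 6.64% of all tested entries higher and 26.7% in either direction. CXCL3 was at 8.88, 8.88 and 11.1 CPM in vehicle libraries, all below the TNFα libraries, a log2 fold change of 2.77 (SE 0.158, adjusted p = 2.98e-09, edgeR). CXCL1 (168, 163 and 171 CPM in vehicle) rose by 1.34 (SE 0.107, adjusted p = 6.02e-08, edgeR), under the size threshold, or by 1.71 with the GC and length trends removed. CXCL2 (71.7, 74.4 and 74.2 CPM in vehicle) rose by 1.53 (SE 0.138, adjusted p = 1.76e-07, edgeR). It was below 1.5 without vehicle replicate 1 (1.42), 2 (1.45) or 3 (1.45) or TNFα replicate 3 (1.47), and also with library size only (1.34), a filter of 10 counts per library (1.48) or the housekeeping factor (1.47). CXCL5 had 8, 7 and 13 reads in vehicle, all fewer than with TNFα, and its summed level was 10 times higher with TNFα (95% interval 6.73 to 15.5).

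CXCL8 went the other way in the same libraries. Vehicle libraries had 889, 1100 and 1180 CPM, more than any other library, and the TNFα libraries were lower by -1.31 (log2, SE 0.509, adjusted p = 0.0281, edgeR). It was -1.52 without vehicle replicate 1 and -1.62 without TNFα replicate 2, both past the size threshold. This direction turned with the GC and length trends removed, to 0.83 (SE 0.219, adjusted p = 0.00315, edgeR). With the housekeeping factor it was 2.79 (adjusted p = 0.00416, edgeR). Of the 20 genes behind that factor, 9 were higher and 3 lower with TNFα than in vehicle by the adjusted p alone. The factor may thus hold part of the treatment difference, which was not tested. Across these alternatives TNFα relative to vehicle had no stable direction for CXCL8. CXCL16, at 9.24, 9.96 and 8.71 CPM in vehicle, was 0.62 higher with TNFα (SE 0.159, adjusted p = 0.00223, edgeR), and -0.09 with the trends removed.

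E2 relative to vehicle lowered 3 of 5 members past the thresholds and raised 1, beside 20.6% of all tested entries lower and 9.87% higher (30.5% in all). The 3 were CXCL2 (-2.1), CXCL3 (-2.11, SE 0.194, adjusted p = 1.4e-07, edgeR) and CXCL8 (-4.72). CXCL1 was lower by -1.24 (log2, SE 0.109, adjusted p = 9.11e-08, edgeR), with every E2 library below every vehicle library. This was under the size threshold, and -1.59 with library size only. CXCL8 was -2.82 with the trends removed and 0.99 (adjusted p = 0.413, edgeR) with the housekeeping factor. CXCL16 rose by 2.1 (SE 0.164, adjusted p = 2.92e-08, edgeR), by 1.22 with the GC and length trends removed and by 1.04 with the housekeeping factor, both under the threshold. CXCL5, with 28 reads in vehicle and none with E2, was at least 2.91-fold higher in vehicle, taken against 3 reads over the group.

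Whether the response to TNFα differed with E2 was tested as an interaction. CXCL8 was significantly regulated, 1 of 5 members higher beside 22.5% of all tested entries higher and 31.8% in either direction. Its TNFα response was 4.6 larger with E2 (log2, SE 0.751, adjusted p = 7.58e-05, edgeR), 1.90 with the trends removed and -1.03 (adjusted p = 0.405, edgeR) with the housekeeping factor. The TNFα responses of CXCL1 and CXCL3 were larger with E2 by 0.61 (SE 0.15, adjusted p = 0.00222, edgeR) and 0.68 (SE 0.247, adjusted p = 0.0232, edgeR). Under the alternatives that kept all libraries, they were larger by 0.31 to 0.93 for CXCL1 and by 0.52 to 0.99 for CXCL3. For CXCL2 the difference of 0.37 (SE 0.199, adjusted p = 0.105, edgeR) did not pass. For CXCL16 it was -0.82 (SE 0.224, adjusted p = 0.00436, edgeR), and 0.07 with the trends removed. Each of these values rests on the vehicle libraries.

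The order of the members was compared per length, without adjustment for GC content. The place of CXCL8 in vehicle relative to TNFα cells rests on the difference that turned under other processing. In vehicle cells RPKM was 621 ± 89.2 for CXCL8, 140 ± 3.43 for CXCL1, 60.9 ± 1.24 for CXCL2, 8.29 ± 1.09 for CXCL3, 3.87 ± 0.262 for CXCL16 and 0.0861 ± 0.0252 for CXCL5 (SD, n = 3), with no overlap between neighbours in this order. With TNFα it was 356 ± 24 for CXCL1, 250 ± 84.6 for CXCL8, 177 ± 18.3 for CXCL2, 56.6 ± 8.19 for CXCL3, 5.98 ± 0.598 for CXCL16 and 0.976 ± 0.353 for CXCL5. There CXCL8 overlapped with both of its neighbours in the order. With E2 it was 59.6 ± 6.31 for CXCL1, 23.0 ± 16.7 for CXCL8, 16.7 ± 3.32 for CXCL16, 14.3 ± 2.89 for CXCL2 and 1.97 ± 0.326 for CXCL3, and CXCL8, CXCL16 and CXCL2 overlapped. With E2+TNFα it was 230 ± 5.08 for CXCL1, 230 ± 170 for CXCL8, 53.3 ± 3.92 for CXCL2, 21.0 ± 1.49 for CXCL3, 14.5 ± 1.46 for CXCL16 and 0.0167 ± 0.0182 for CXCL5, and only CXCL1 and CXCL8 overlapped.

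The summed RPKM of the 6 genes was 834 ± 91.7 in vehicle, 847 ± 124 with TNFα, 116 ± 7.77 with E2 and 549 ± 165 with E2+TNFα (SD, n = 3). CXCL8 made up 74.2% ± 2.73 of the sum in vehicle, 29.1% ± 5.46 with TNFα, 19.4% ± 13.2 with E2 and 38% ± 19.4 with E2+TNFα. CXCL16 made up 14.6% ± 3.93 with E2 and 0.469% ± 0.0648 in vehicle. These sums and shares are not adjusted for GC content, and those in vehicle rest on the CXCL8 level there, whose difference from TNFα has no stable direction.

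Ratios of the near copies CXCL1, CXCL2 and CXCL3 within a library do not depend on library size and involve genes of almost equal GC content. They were picked with their values known. The permutation p-values below thus describe how far the libraries separate and give no independent support. The log2 ratio of CXCL1 to CXCL2 (RPKM) was 1.24, 1.15 and 1.22 in vehicle, 1.10, 1.09 and 0.86 with TNFα, 2.25, 1.99 and 1.98 with E2 and 2.03, 2.08 and 2.23 with E2+TNFα. All 6 libraries with E2 were above all 6 without, whether or not TNFα was present. The mean difference with E2 was 0.98 (p = 0.005, two-sided exact permutation of E2 labels within each TNFα level, the smallest p the 400 arrangements allow, adjusted p = 0.01 over 8 such tests). With TNFα it was -0.07 (exact permutation p = 0.34, adjusted p = 0.389). CXCL2 was thus lower relative to CXCL1 in each E2 library.

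The log2 ratio of CXCL2 to CXCL3 followed the other treatment. It was 2.96, 3.01 and 2.69 in vehicle, 2.69, 2.71 and 3.15 with E2, 1.65, 1.45 and 1.83 with TNFα and 1.35, 1.44 and 1.26 with E2+TNFα. All 6 libraries with TNFα were below all 6 without. The mean difference was -1.37 with TNFα (exact permutation p = 0.005, adjusted p = 0.01) and -0.16 with E2 (exact permutation p = 0.18, adjusted p = 0.24). Without E2 replicate 3 the latter was -0.24 and past an unadjusted p of 0.05. The ratio of CXCL1 to CXCL3 differed with both treatments, by 0.82 with E2 and by -1.45 with TNFα (exact permutation p = 0.005, adjusted p = 0.01 for each). Its log2 value is the sum of those of CXCL1 to CXCL2 and CXCL2 to CXCL3, so it adds no separate result. The ratio of CXCL8 to CXCL1 differed by -1.79 with E2 (exact permutation p = 0.07, adjusted p = 0.112) and -0.68 with TNFα (exact permutation p = 0.435, adjusted p = 0.435). These genes differ in GC content, and with the trends removed the differences were -0.99 and -0.08. These ratios were chosen after their values had been seen.

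**Figure D3:**
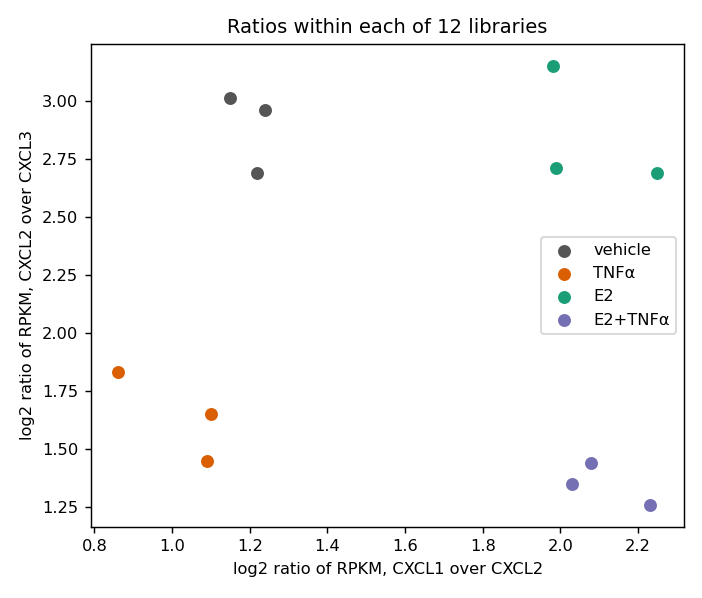
Log2 ratio of CXCL1 to CXCL2 (horizontal axis) and of CXCL2 to CXCL3 (vertical axis), from RPKM within each of 12 libraries; colours are the 4 groups. The groups fall in 4 corners, with the 6 E2-treated libraries at 1.98 or more on the horizontal axis and the 6 TNFα-treated libraries at 1.83 or less on the vertical axis.

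The spread of CXCL8 between replicates moved with the GC-poor genes in 3 of the 4 groups. Within E2 libraries CXCL8 deviated from its mean over all libraries by -1.87, -4.20 and -2.92 (log2), and the median of the GC-poor genes by -0.33, -0.77 and -0.42. Within E2+TNFα libraries CXCL8 deviated by 0.50, 1.44 and -1.10 and the median by -0.16, 0.10 and -0.72. In both groups, and with TNFα alone, the order of the 3 libraries was the same on both measures. In vehicle it was not, with CXCL8 at 1.79, 2.11 and 2.21 and the median at 1.19, 1.55 and 1.47. Over the 12 libraries the Pearson correlation was 0.69, with the 4 groups as well as the libraries as shared sources. The part of base composition in these values was tested only through the removal of the trends given above.

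**Figure D4:**
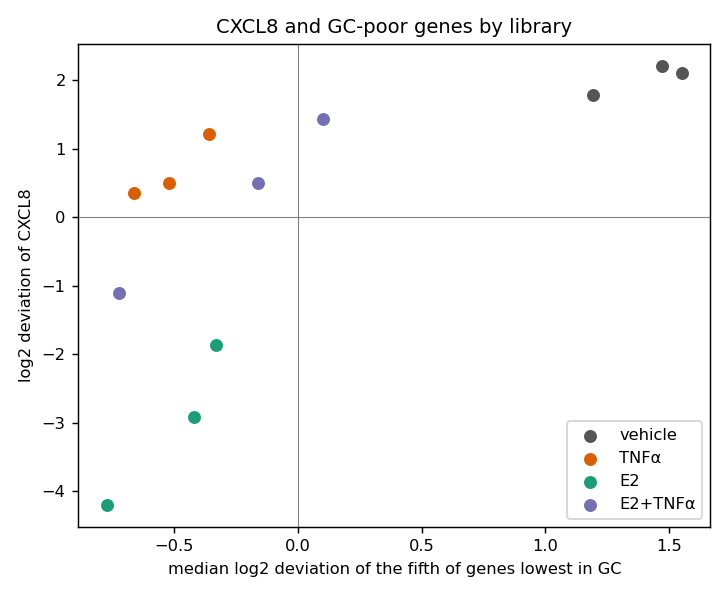
Log2 deviation of CXCL8 (vertical axis) against the median log2 deviation of the 2261 genes with the lowest GC content (horizontal axis) in each of 12 libraries, both from the mean over libraries. Vehicle libraries lie at 1.19 to 1.55 on the horizontal axis, and E2 replicate 2 is lowest on both axes.

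The chromosome 4 neighbours were examined from 500 kb before CXCL8 to 500 kb after CXCL11, a window of 19 counted entries. After the 5 members these are, in order, EPGN, EREG and AREG, which encode ligands of the epidermal growth factor receptor family, and then RCHY1, THAP6, ODAPH, G3BP2, USO1, NAAA, SDAD1, NUP54, SCARB2, STBD1 and SHROOM3. From the start of CXCL8, CXCL2 begins at 356.5 kb, EPGN at 567.8, AREG at 704.6, RCHY1 at 1739 and SHROOM3 at 2695 kb. The entries from RCHY1 on are thus far from the measured members. In E2+TNFα relative to E2 cells, 4 of 4 tested members and 0 of 13 tested neighbours were significantly regulated, beside 0.407% of all tested entries. At that share, few or none of 13 would be called. The medians of members and neighbours were 2.62 and 0.157 (log2), respectively, beside 0.00823 over all tested entries. The neighbours ranged from -0.16 to 0.89. By the adjusted p alone, 1 neighbour was higher, beside 2.65% of all tested entries. It was EREG, named here after its values were seen. EREG was at 37.4, 36.4 and 47.4 CPM with E2 and at 79.1, 89.5 and 57.0 CPM with E2+TNFα, without overlap, a log2 fold change of 0.89 (SE 0.185, adjusted p = 0.0236, edgeR).

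In E2+TNFα relative to TNFα cells, 1 of 4 tested members and 0 of 13 neighbours were significantly regulated, beside 5.56% of all tested entries. The medians of members and neighbours were -1.03 and -0.051, respectively, beside 0.0419 over all tested entries. By the adjusted p alone, 4 neighbours were lower and 1 higher, beside 21.0% and 24.4% of all tested entries, among them EREG at -0.60 (SE 0.179, adjusted p = 0.0164, edgeR). EPGN, next to CXCL2, was near the limit of detection, with 37, 30 and 35 reads in vehicle, 4, 2 and 0 with TNFα, 1, 0 and 0 with E2 and 3, 3 and 3 with E2+TNFα. Its pattern differed from that of CXCL2, since it was highest in vehicle, 12 times its summed level with TNFα (95% interval 5.35 to 33.6, counting error only). This contrast rests on the vehicle libraries, which are high in GC-poor genes, and the GC content is 37.2% for EPGN and 45.8% for CXCL2. Against vehicle, 5 of 13 neighbours were significantly lower with TNFα, beside 20.0% of all tested entries, and 6 with E2, beside 20.6%. None was higher with TNFα or with E2, beside 6.64% and 9.87% of all tested entries, respectively. The neighbours called lower with TNFα were RCHY1, THAP6, G3BP2, USO1 and SDAD1, and with E2 also NUP54. Their GC content was 36.5% to 41.9%, within the range (at most 42%) that was high in vehicle libraries. Values of these neighbours with the GC and length trends removed are not given here.

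**Figure D5:**
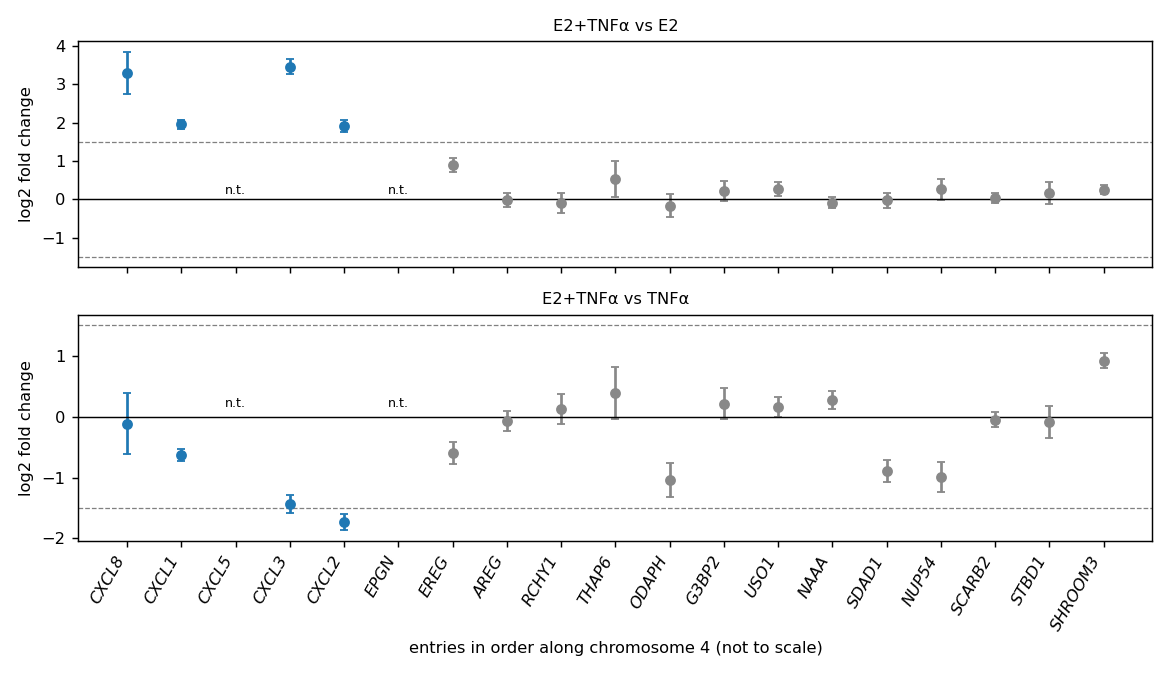
Log2 fold change with its SE (vertical axes) of the 19 counted entries in order along chromosome 4 (horizontal axis, not to scale), members in blue and neighbours in grey; n.t. marks the 2 that were not tested, and dashed lines lie at 1.5 in either direction. In E2+TNFα relative to E2 cells the 4 tested members lie at 1.91 to 3.45 and the 13 neighbours at -0.16 to 0.89.

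Genes that act upstream of the members or on their products were listed by role. Of 11 NFκB subunits and inhibitors, 2 were significantly higher in E2+TNFα than in E2 cells, beside 0.389% of all tested entries. By the adjusted p alone 9 passed as higher, beside 2.65% of all tested entries. TNFAIP3, a feedback inhibitor of NFκB signalling, was at 68.4, 65.4 and 67.8 CPM with E2 and at 396, 385 and 414 CPM with E2+TNFα, far apart, a log2 fold change of 2.57 (SE 0.118, adjusted p = 5.28e-09, edgeR). REL, an NFκB subunit, rose by 1.67 (SE 0.371, adjusted p = 0.0316, edgeR), a call lost without E2 replicate 1 (1.26), without E2+TNFα replicate 2 (1.51, adjusted p = 0.128, edgeR) and after removal of the trends (1.29). In E2+TNFα relative to TNFα cells, 0 of the 11 were significantly regulated, and 7 passed the adjusted p alone as lower and 0 as higher, beside 5.56%, 21.0% and 24.4% of all tested entries, respectively.

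Of 11 measured interferon factors, IRF1 alone was significantly regulated relative to E2 and relative to TNFα, beside 0.407% and 5.56% of all tested entries. IRF1 is a transcription factor induced by TNFα and interferons. IRF1 was at 26.3, 34.6 and 28.1 CPM with E2, 386, 357 and 392 CPM with TNFα and 123, 112 and 133 CPM with E2+TNFα. The groups were well apart, with log2 fold changes of 2.05 relative to E2 (SE 0.126, adjusted p = 7.12e-08, edgeR) and -1.63 relative to TNFα (SE 0.12, adjusted p = 5.33e-08, edgeR).

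Among 7 TNF receptors and adaptors, BIRC3 alone was significantly regulated relative to E2, and BIRC3 and TNFRSF1B relative to TNFα, beside 0.407% and 5.56% of all tested entries. BIRC3, an inhibitor of apoptosis at the TNF receptor complex, was at 36.0, 21.8 and 22.4 CPM with E2, 11, 12 and 10.1 CPM with TNFα and 119, 191 and 49.1 CPM with E2+TNFα. Within E2+TNFα its libraries stood in the same order as for CXCL8. It rose by 2.15 relative to E2 (SE 0.351, adjusted p = 0.00484, edgeR), or 1.47 with the trends removed, and by 3.44 relative to TNFα (SE 0.366, adjusted p = 3.16e-06, edgeR). TNFRSF1B, which encodes TNF receptor 2, was at 35.2, 30.0 and 37.1 CPM with TNFα and 9.40, 10.2 and 13.3 CPM with E2+TNFα, lower by -1.63 (log2, SE 0.167, adjusted p = 1.98e-06, edgeR). Of 9 regulators of the decay of AU-rich transcripts, which include chemokine mRNAs, 0 were significantly regulated in either comparison without vehicle. The same held for 3 genes of CXCL16 shedding. At 0.407% and 5.56% of all tested entries, few or none in lists of this size would be called. By the adjusted p alone, 2 of the 9 were higher and 4 lower relative to TNFα, beside 24.4% and 21.0% of all tested entries. Of the 3 shedding genes, 1 was higher and 2 were lower there. Relative to E2, 1 of the 9 and 0 of the 3 were higher, beside 2.65%.

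Of 8 other CXC ligands, 1 was counted, CXCL14, a chemokine on chromosome 5 that does not act through CXCR2. It was at 0.992, 0.494 and 0.525 CPM in vehicle, 0.823, 0.620 and 0.832 CPM with TNFα, 188, 233 and 203 CPM with E2 and 188, 154 and 190 CPM with E2+TNFα. All 6 libraries with E2 were far above all 6 without. Its log2 fold change was 8.28 for E2 relative to vehicle (SE 0.232, adjusted p = 1.12e-12, edgeR) and 7.88 for E2+TNFα relative to TNFα (SE 0.235, adjusted p = 4.31e-12, edgeR). CXCL14 reached 1 RPKM only in libraries with E2, so it entered the test through the groups where it is high. In RPKM, CXCL14 with E2 (105 ± 11.5) was above CXCL1 (59.6 ± 6.31), the highest of the members there.

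Of 10 CXC receptors, CXCR4 and ACKR3, both receptors of CXCL12, were counted, and CXCR2 and CXCR6 were not analysed here. ACKR3, a scavenger receptor, had 12, 18 and 11 reads in vehicle, 0, 0 and 0 with TNFα, 113, 42 and 85 with E2 and 83, 157 and 201 with E2+TNFα. No TNFα library had a read, while all E2+TNFα libraries did, at least a 146-fold difference per 1e6 reads taken against 3 reads over the group. E2 relative to vehicle gave a log2 fold change of 4.53 (SE 0.292, adjusted p = 1.87e-08, edgeR). ACKR3 too reached 1 RPKM only in libraries with E2 and entered the test through them.

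Likeness between genes was measured as the Pearson correlation of log2 CPM over the 12 libraries, a description in which all genes share the 4 groups. The genes most like CXCL1 were CXCL3 (0.995), TNFAIP3 (0.987) and CCL20 (0.975), and those most like CXCL3 were CXCL1, TNFAIP3 (0.98) and CCL20 (0.974). For CXCL2 they were ETS2 (0.986), IL1B (0.985) and ANKRD33B (0.967), so CXCL2 was not among the 3 genes most like its near copies. For CXCL8 the closest were RCAN1 (0.944), ADAMTS9 (0.942) and KLF6 (0.939). For CXCL16 they were RAC2 (0.996), PLCD3 (0.995) and ELFN2 (0.994), with a GC content of 57%, 63.3% and 62.2% beside 56.7% for CXCL16. CXCL16 had negative correlations with the cluster, at -0.80 with CXCL8, -0.63 with CXCL2, -0.39 with CXCL1 and -0.37 with CXCL3.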

How the data were processed

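RNA was sequenced from 12 samples of MDA-MB-231-ERβ cells in 4 groups of 3, assigned from the labels. The deposited values are whole-number counts of reads per gene, which the authors made with TopHat2 2.1.0 (hg38, stranded mRNA libraries) and featureCounts, without normalization. The annotation and strand setting are not given in the sources used here, and the authors' RUVseq batch correction is not in these counts. Removed were 46 repeated rows and 70 rows that doubled another symbol at the same locus, whereas 14 symbols with several loci stayed separate.

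Entries that reached an RPKM of 1 in 3 or more libraries entered TMM normalization and the quasi-likelihood test (F) in edgeR 4.0.16 (R 4.3.3), in one fit of 4 group means that was checked on simulated data. Library totals were 7.65 to 39.9 M reads. Few reads carry counting error, so ratios of summed counts have 95% intervals, or bounds against 3 counts. Alternatives were other size factors, filters, DESeq2 1.42.0, a replicate block, a housekeeping factor as in RUVg, loess trends with GC content and length (span 0.3), fits of fewer groups, and each library left out. Promoters came from RefSeq (GRCh38.p14) and were equal to hg38, and identities were computed with Biopython 1.88.

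The members, gene lists and alternatives were chosen with earlier results of these data known. Named were all measured members, the window's neighbours next to a member, up to 3 called genes with the largest change per list and comparison, and the 3 genes most like each member. EREG and the ratios were added after values were seen.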

Additional observations from a re-analysis of the deposited data

Results flagged for a closer look

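The response to TNFα differed between cells with and without E2 for 4 of the 5 tested members by the adjusted p of the interaction alone. By all thresholds it did for 1 of 5, beside 31.8% of all tested entries. CXCL8 changed by -1.31 with TNFα alone, a direction that turned under other processing, and by 3.29 with TNFα after E2, and the responses differed by 4.6 (log2, adjusted p = 7.58e-05, edgeR). Every response without E2 rests on the vehicle libraries, which are high in GC-poor genes, and the CXCL8 difference was 1.90 with GC and length trends removed and -1.03 with the housekeeping factor. CXCL1 rose more with E2 than without, by 0.61 (adjusted p = 0.00222, edgeR), and so did CXCL3, by 0.68 (adjusted p = 0.0232, edgeR). Under the alternatives that kept all libraries, these differences were 0.31 to 0.93 and 0.52 to 0.99, respectively. CXCL16 changed by 0.62 with TNFα alone, or by -0.09 with the trends removed, and by -0.19 after E2, and the responses differed by -0.82 (adjusted p = 0.00436, edgeR), or by 0.07 with the trends removed. The cause of these differences was not tested.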

How the results depend on the processing

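In E2+TNFα relative to E2 cells, 4 members were significantly regulated under every alternative run. For TNFα relative to vehicle, 1 was under a filter of 10 counts per library, and 1 to 3 with each library left out. The 2 called there with library size only or the housekeeping factor were CXCL3 and CXCL8 in place of CXCL3 and CXCL2. For E2 relative to vehicle, 2 were with the housekeeping factor and 5 with library size only or without a filter (4 in each fit that left out a library). For E2+TNFα relative to TNFα, 2 were without a filter, with GC and length trends removed and with the trends removed in the block fit, and 1 to 2 with each library left out. The fit without a filter also held CXCL5, so its counts are out of 6 members and not 5. The interaction called 0 members with the housekeeping factor.

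With the housekeeping factor, CXCL8 turned to 2.79 in TNFα against vehicle, 0.99 in E2 against vehicle and -1.03 in the interaction, and CXCL16 to -0.11 in the first of these, 0.18 in the last and 0.08 in E2+TNFα against E2. Of the 20 housekeeping genes, 12 were higher and 3 lower in E2 than in vehicle by the adjusted p alone. Their factor may thus hold part of the treatment difference. With the trends removed, without and with the replicate block, CXCL8 for TNFα relative to vehicle turned to 0.83 and 0.82. CXCL16 turned to -0.09 and -0.08 there and to 0.07 in both interactions. CXCL8 in E2+TNFα relative to TNFα turned to 0.17 without TNFα replicate 2 and 0.31 without E2+TNFα replicate 3, the highest with a library left out (lowest -0.83). The cause was not tested. Of 255 values of single members under the other alternatives, 231 kept direction and call, as did 170 of 180 with a library left out. With library size only, the median of all genes moved to -0.378 for E2 relative to vehicle.

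The labels do not say that replicate numbers pair the samples. Of 18 pairs of same-numbered libraries, 4 had a correlation of deviations over 0.1 (range -0.47 to 0.43). Among replicates 2 of vehicle, TNFα and E2+TNFα it was 0.18, 0.40 and 0.43, and with E2 replicate 2 it was -0.26, -0.31 and -0.47. Libraries with different numbers were not compared, so partial pairing was not tested. With the replicate number as a block, 2 members were called in TNFα against vehicle, 4 in E2+TNFα against E2, 4 in E2 against vehicle, 1 in E2+TNFα against TNFα and 1 in the interaction, as many as without it. Depth limits CXCL5, EPGN and ACKR3, with few or no reads in some groups.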
